A study of Mus musculus with 4 samples.

Results

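The genes described here encode the chaperones, oxidoreductases and degradation factors of the endoplasmic reticulum (ER) together with the sensors and transcription factors of the unfolded protein response. A fixed list named 44 of them, and a gene was taken as measured where a probe set carried its symbol and no other. This held for 43 of the 44 genes, with 49 probe sets, out of 22180 genes on the array; Pdia4 was not analysed here. Ero1l, Ero1lb, Selk and Vimp appear under their current symbols Ero1a, Ero1b, Selenok and Selenos. The list follows function, but it and the lists set beside it were chosen with earlier results of these data known. RNA came from 4T1Br, a subline of the mouse mammary carcinoma 4T1 that seeks the brain (the titles say 4T1), infected with lentivirus that carried either a control hairpin (shControl, 2 arrays) or a hairpin targeting YTHDF3 (shYTHDF3, 2 arrays). Both groups went through puromycin selection, and the labels do not say whether each was a mixed population or a clone. They also do not say that the 2 arrays of a group came from separate cultures, so p-values measure the spread between these arrays, which may be technical.

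The ER lumen is where secreted and membrane proteins fold. Chaperones such as BiP, the product of Hspa5, hold unfolded chains, lectin chaperones hold chains that carry sugars, and protein disulphide isomerases form and rearrange disulphide bonds with oxidising power passed on by ERO1. When unfolded protein accumulates, the sensors IRE1, ATF6 and PERK start the unfolded protein response, which induces many of these genes through XBP1 and ATF6 and, on the PERK arm, stress genes through ATF4. YTHDF3 is a cytoplasmic protein that binds N6-methyladenosine in messenger RNA. The comparison asks which of these transcripts differed between cells with the control and the YTHDF3 hairpin; the arrays measured RNA, not protein, translation or the splicing of Xbp1.

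Values are log2 expression per probe set. Ythdf3 itself stood at 8.98 and 8.81 in shControl against 8.21 and 8.16 in shYTHDF3, a level 61.1% of shControl (limma adjusted p = 0.0355). The background level, 4.28, is the 95th percentile of the olfactory receptor probe sets, and 13056 genes lay above it and were tested. Of the epithelial markers, Krt8 (10.04 to 10.45) and Krt18 (10.45 to 11.13) were well above it on the 4 arrays, Cdh1 was close to it (4.37 to 4.61) and Epcam lay below it (3.80 to 4.05). Of the 6 epithelial markers tested Krt7 rose from a mean of 5.57 to 7.07 (limma adjusted p = 0.00816) and 5 did not pass, with Krt18 at 0.57 and Krt19 at -0.53. The leukocyte marker Ptprc (at most 3.37) and the plasma cell marker Jchain (at most 3.06) lay below background on the 4 arrays. Of 15 leukocyte, plasma cell, fibroblast and vessel markers 8 could be tested, and limma called 0 of them. At an unadjusted p under 0.05, 2 were lower: Cd68, a leukocyte marker, at -0.72 (limma adjusted p = 0.0547) and Sdc1, a plasma cell marker that epithelial cells also express, at -0.34 (limma adjusted p = 0.151). The part of these markers in the results was not tested.

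Of the 42 members above background, Ero1a fell, none rose and 41 did not pass limma's test at an adjusted p of 0.05. Over all genes tested 2.73% were called, 1.28% as higher and 1.45% as lower, so the members' share was near that of all genes. At an unadjusted p under 0.05 the count was 8 of 42 members (19.0%), 5 higher and 3 lower, against 22.6% of all genes tested. The median change was 0.01 over the members and 0.01 over all genes. The median size of the change, whatever its sign, was 0.06 over the members and 0.15 over all genes, and 34 of the 42 members (81.0%) differed by less than 0.25, as did 72.5% of all genes. The members were also brighter, with array medians of 8.52 to 8.62 against 6.75 to 6.82 over all genes tested. Replicates of the members also lay closer together, with a median SD within groups of 0.058 against 0.10 over all genes. For 22 of the 42 members (52.4%) the change was smaller than the gap between 2 arrays of one group, which was the case for 57.5% of all genes. The shYTHDF3 values lay wholly above the shControl values in 13 members and wholly below them in 9, where 28.3% and 25.7% of all genes tested did so, 54.0% in either direction.

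A difference that misses the threshold is not shown to be absent, so the intervals matter. limma's 95% interval lay within 0.5 log2 units of 0, a change of 1.41-fold, for 37 of the 42 members (88.1%) and for 63.2% of all genes tested. The 5 members with intervals that reached past it were Ero1a, P4hb, Xbp1, Selenos and Sec61b. These 5 were picked out by that bound after their values were seen.

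The count of calls depended on how limma modelled the spread. With a variance trend on intensity, limma called 5 of the 42 members: Ero1a, P4hb, Canx and Pdia3 as lower and Xbp1 as higher. That setting called 10.9% of all genes tested, 5.33% as lower and 5.59% as higher.

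**Figure D1:**
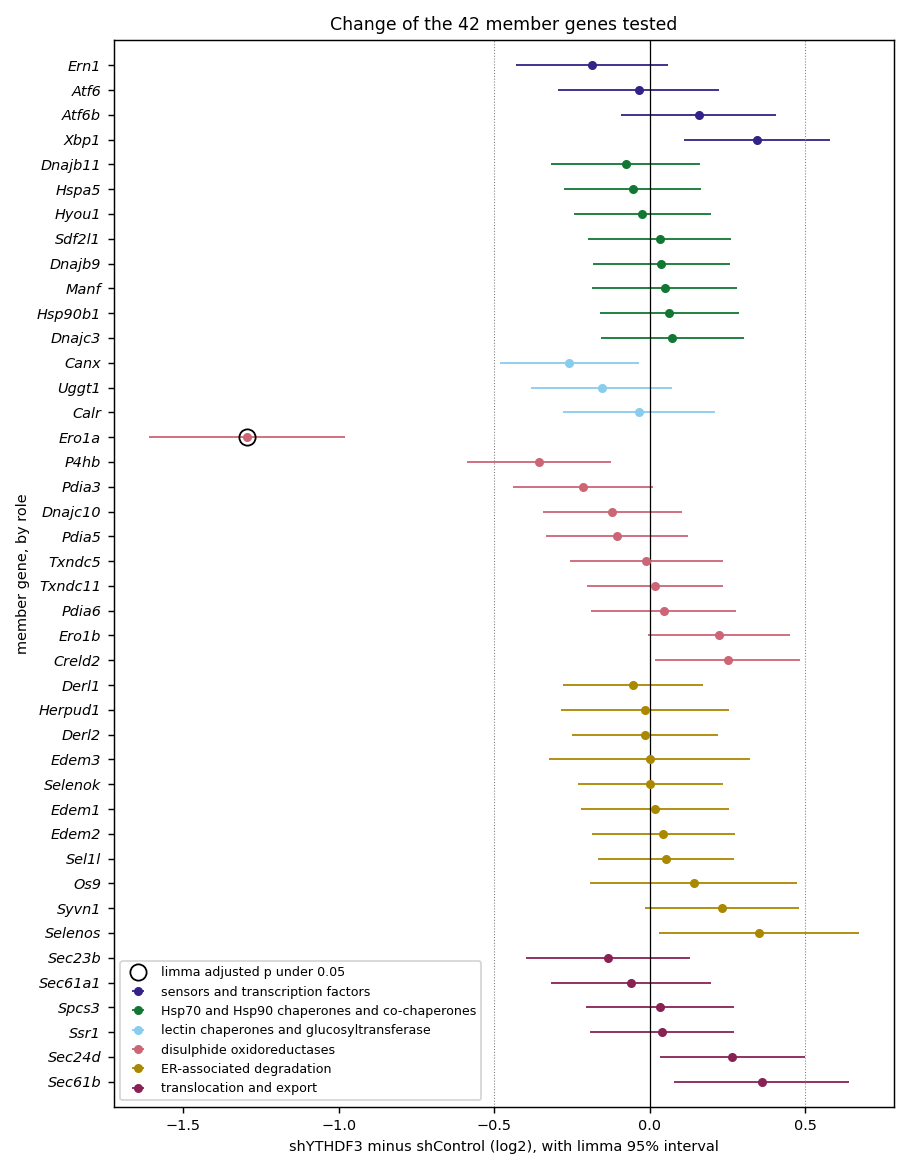
Each point is the difference of group means (shYTHDF3 minus shControl, log2, horizontal axis) of 1 of the 42 member genes tested, with limma's 95% interval, grouped and coloured by role; the ring marks the gene past the threshold and dotted lines stand at 0.5 and -0.5. Ero1a lies alone at -1.29, and the other 41 points lie between -0.36 and 0.36.

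The disulphide oxidoreductases held the one call and also members that differed the other way. Ero1a encodes the flavoprotein that reoxidises protein disulphide isomerase and is induced by hypoxia as well as by ER stress. Its main probe set read 11.68 and 11.89 in shControl against 10.61 and 10.37 in shYTHDF3. Both shYTHDF3 arrays lay below both shControl arrays, and the gap between the groups was far larger than that between replicates. The means were 11.79 ± 0.15 and 10.49 ± 0.17 (SD, n = 2 each), and the transcript fell by 1.29 on the log2 scale (SE 0.13, 95% interval -1.61 to -0.98, limma adjusted p = 0.0221) to 40.8% of its level in shControl. Its second probe set read 8.27 and 8.40 in shControl against 7.04 and 7.40 in shYTHDF3, a difference of -1.11, or 46.2% of shControl. Both probe sets had lower values on both shYTHDF3 arrays. In bulk RNA, fewer cells with a transcript and less of it per cell cannot be told apart. The Ero1a call ended with the replicate number as a block (limma adjusted p = 0.0614). The call was also lost when all probe sets above background were tested one by one (limma adjusted p = 0.185). It also ended without any 1 array, the change then running from -1.41 to -1.18, and limma's adjusted p was 0.152 or 0.177 when shControl 1 or 2 was dropped and 0.0942 or 0.108 when shYTHDF3 1 or 2 was dropped.

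Ero1b, the paralog best known from pancreatic beta cells, read 6.12 and 6.09 in shControl against 6.37 and 6.28 in shYTHDF3. The groups did not overlap, and the difference of 0.22 had the opposite sign to that of Ero1a but did not pass (SE 0.09, 95% interval -0.01 to 0.45, limma adjusted p = 0.232). P4hb encodes protein disulphide isomerase itself, the main partner of ERO1. It read 10.58 and 10.65 in shControl against 10.30 and 10.22 in shYTHDF3. Both shYTHDF3 values were lower, by 0.36 on average, which left 78.1% of shControl (SE 0.09, 95% interval -0.59 to -0.12, limma adjusted p = 0.106, and 0.00984 with the intensity trend). Pdia3, the isomerase that works with the lectin chaperones, differed by -0.21 (limma adjusted p = 0.238, and 0.0474 with the trend). Creld2, a stress-induced protein with isomerase activity, differed by 0.25 (limma adjusted p = 0.197). Dnajc10, a reductase that prepares misfolded proteins for degradation, differed by -0.12 and Pdia5 by -0.10. Pdia6 (0.04), Txndc11 (0.02) and Txndc5 (-0.01) had the smallest differences of the group. In this group 1 of 10 members tested fell, 9 did not pass, and 1 was higher and 2 were lower at an unadjusted p under 0.05, counting Ero1a.

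The 250 bases before the start site of Ero1a are shown because this is the member that changed. RefSeq's promoter table places them at chr14:45318573-45318822 on the minus strand of GRCm38.p6. Capitals mark the only match to ACGTG, a form of the core of hypoxia response elements. The match lies on the opposite strand and so reads CACGT here. The form GCGTG, which the stretch also holds, was not searched or marked.
Ero1a: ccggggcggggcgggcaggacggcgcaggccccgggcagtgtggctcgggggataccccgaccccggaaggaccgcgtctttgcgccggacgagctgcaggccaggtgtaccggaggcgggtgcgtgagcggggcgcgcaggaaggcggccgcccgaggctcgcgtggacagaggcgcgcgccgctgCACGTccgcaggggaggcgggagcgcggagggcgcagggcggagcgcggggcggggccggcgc
ACGTG is short and common. On either strand it was found in 19.6% of the 32851 promoters in the table (300 bases each, 250 before to 50 after the start site) and in 21.8% of the 27025 genes there, a gene counting if any of its promoters held it. Counted that way, 19 of the 37 members with a promoter in the table held it. The 18 of these that were tested had a median change of 0.03 and the 18 without a match one of 0.01; Selenos (0.35) and Sec24d (0.27) held it as well as Ero1a and P4hb (-0.36). A match describes letters and not a bound site.

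The Hsp70 and Hsp90 chaperones and their partners had the narrowest range of changes of the 6 role groups. limma called 0 of the 8 (0 at an unadjusted p under 0.05), with differences from -0.08 to 0.07, and the 95% interval of each of the 8 lay within 0.5 log2 units of 0. Hspa5, which encodes BiP and is the standard readout of ER stress, read 10.56 and 10.53 in shControl against 10.51 and 10.47 in shYTHDF3. The shYTHDF3 values were lower by 0.05 on average, 96.3% of shControl (SE 0.09, 95% interval -0.28 to 0.17, limma adjusted p = 0.765). Hsp90b1, the ER Hsp90 known as GRP94, read 11.91 and 11.86 in shControl against 11.93 and 11.97 in shYTHDF3, a difference of 0.06 (limma adjusted p = 0.725). Although the groups of both genes did not overlap, each difference was smaller than its standard error in the main fit. With the intensity trend the difference of Hsp90b1, 0.064, was slightly larger than its SE of 0.056. Neither gene passed with the trend (limma adjusted p = 0.635 for Hspa5 and 0.534 for Hsp90b1).

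The co-chaperones were as close. Dnajb9, a J protein induced by XBP1 that restrains IRE1, read 7.66 and 7.63 in shControl against 7.66 and 7.70 in shYTHDF3, a difference of 0.04 (limma adjusted p = 0.849). Dnajc3, known as p58IPK, an inhibitor of the kinase PERK, read 9.39 and 9.30 against 9.44 and 9.40, a difference of 0.07 (limma adjusted p = 0.695). Dnajb11, a J protein that delivers substrates to BiP, read 8.74 and 8.62 against 8.57 and 8.64, a difference of -0.08 with overlapping groups (limma adjusted p = 0.689). Hyou1, the exchange factor for BiP, differed by -0.02, Sdf2l1 by 0.03 and the secreted stress protein Manf by 0.05. Manf read 5.12 to 5.25 on the 4 arrays, within 1 log2 unit of background.

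Many of these genes carry the ER stress element, to which ATF6 and XBP1 bind with NF-Y. The rule that chose the genes did not search sequence. It did list genes known for the unfolded protein response, so the share with this element is not independent of the choice. The motif searched was CCAAT, then any 9 bases, then CCACG, on both strands of the promoter windows in RefSeq's table (GRCm38.p6). Of the 43 members measured 37 had a promoter there; Atf6, Derl1, Hyou1, Manf, Sec61a1 and Spcs3 did not. The element was found in 10 of the 37 genes (27.0%), against 0.137% of the 27025 genes and 0.119% of the 32851 promoters in the table. Capitals mark the fixed letters, each site is written on the strand that holds the motif, and no site overlapped one of the other motifs searched.
Hspa5: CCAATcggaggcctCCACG (chr2:34772025-34772043, plus strand)
Hsp90b1: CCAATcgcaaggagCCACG (chr10:86705638-86705656, minus strand)
Hsp90b1: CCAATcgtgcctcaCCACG (chr10:86705533-86705551, plus strand)
Dnajc3: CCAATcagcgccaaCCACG (chr14:118937827-118937845, plus strand)
Calr: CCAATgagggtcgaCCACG (chr8:84847075-84847093, plus strand)
Canx: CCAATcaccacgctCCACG (chr11:50325800-50325818, minus strand)
Pdia6: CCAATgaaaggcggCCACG (chr12:17266491-17266509, plus strand)
Creld2: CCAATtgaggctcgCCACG (chr15:88819520-88819538, minus strand)
Ero1b: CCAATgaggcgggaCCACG (chr13:12565682-12565700, minus strand)
Syvn1: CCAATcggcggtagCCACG (chr19:6046532-6046550, plus strand)
Derl3: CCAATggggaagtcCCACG (chr10:75893242-75893260, minus strand)
Derl3 lay below background and was not tested. The other 9 genes differed by -0.26 to 0.25 with a median of 0.06, and limma called 0 of them (2 at an unadjusted p under 0.05); with the intensity trend Canx passed. The 27 members tested whose promoter held no match had a median of 0.0024, Ero1a among them.

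The exact match of Hspa5 stands in this 250-base stretch before its start site, at chr2:34771840-34772089 on the plus strand, with the fixed letters in capitals. Near matches to the element were not searched or marked.
Hspa5: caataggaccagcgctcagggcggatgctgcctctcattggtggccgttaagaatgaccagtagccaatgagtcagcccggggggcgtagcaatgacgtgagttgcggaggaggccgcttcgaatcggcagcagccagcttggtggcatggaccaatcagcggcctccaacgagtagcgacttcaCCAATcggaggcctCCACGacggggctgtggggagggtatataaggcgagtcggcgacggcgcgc
A shorter variant, ERSE-II, searched as ATTGG, any base, then CCACG on both strands, was found in Herpud1 and Dnajb11, 2 of 37 members, and in 0.0444% of all genes and 0.0365% of all promoters there. The unfolded protein response element, searched as TGACGTGG on both strands, was found in Sec24d, Txndc5 and Txndc11, 3 of 37 members, and in 0.714% of all genes and 0.676% of all promoters there; it contains ACGTG. These 5 genes differed by -0.08 to 0.27, and limma called 0 of them (1 at an unadjusted p under 0.05), also with the intensity trend. For the unfolded protein response element only TGACGTGG was searched. The Hspa5 stretch above holds tgacgtga, which differs from it in the last letter and was not searched or marked.

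The lectin chaperones and the glucosyltransferase that works with them all had lower means in shYTHDF3, without passing. Canx encodes calnexin, the membrane-bound lectin chaperone. It read 11.88 and 11.82 in shControl against 11.58 and 11.60 in shYTHDF3. The groups were clearly apart, and the difference of -0.26 left 83.6% of shControl (SE 0.09, 95% interval -0.48 to -0.04, limma adjusted p = 0.175, and 0.0211 with the intensity trend). Uggt1, the glucosyltransferase that returns unfolded glycoproteins to calnexin, read 9.51 and 9.58 against 9.42 and 9.36, a difference of -0.15 (limma adjusted p = 0.376). Calr, the soluble counterpart of calnexin, differed by only -0.03, with overlapping groups (limma adjusted p = 0.877). limma called 0 of these 3 genes, 1 being lower at an unadjusted p under 0.05.

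Among the sensors and transcription factors Xbp1 differed most. Xbp1 is the transcription factor whose messenger RNA IRE1 splices, and it is itself induced by ATF6. It read 8.90 and 8.98 in shControl against 9.25 and 9.33 in shYTHDF3. Both shYTHDF3 arrays were higher, by 0.35 on average or 127% of shControl, without passing (SE 0.09, 95% interval 0.11 to 0.58, limma adjusted p = 0.114, and 0.0192 with the intensity trend). Ern1, which encodes IRE1, read 8.41 and 8.44 in shControl against 8.31 and 8.16 in shYTHDF3, a difference of -0.19 (limma adjusted p = 0.330). Atf6 read 9.58 and 9.43 against 9.41 and 9.53, with overlapping groups and a difference of -0.04 (limma adjusted p = 0.878) that was positive after quantile normalization was applied once more (0.0076). Atf6b, its paralog, differed by 0.16 (limma adjusted p = 0.410). limma called 0 of the 4, 1 being higher at an unadjusted p under 0.05.

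ER-associated degradation, which returns misfolded proteins to the cytosol for the proteasome, differed little apart from Selenos and Syvn1. Selenos encodes the selenoprotein VIMP, which helps to recruit the p97 ATPase to the ER membrane. It read 7.58 and 7.72 in shControl against 7.85 and 8.15 in shYTHDF3. Both shYTHDF3 arrays were higher but differed from each other by almost as much as the groups did; the difference was 0.35 (SE 0.13, 95% interval 0.03 to 0.67, limma adjusted p = 0.193). Syvn1 encodes HRD1, the ubiquitin ligase of the pathway. It read 6.35 and 6.33 against 6.66 and 6.50, a difference of 0.23 without overlap (limma adjusted p = 0.241). Sel1l, the partner that stabilises HRD1, differed by 0.05.

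Herpud1, a stress-induced scaffold of that ligase, read 8.46 and 8.56 in shControl against 8.40 and 8.60 in shYTHDF3. The shYTHDF3 arrays lay on either side of the shControl arrays, and the difference was -0.02 (SE 0.11, limma adjusted p = 0.954), positive with quantile normalization once more (0.0067) and with a common median (0.0044). Os9, a lectin that selects glycoproteins for degradation, differed by 0.14, with 1 low shControl array (7.79 against 8.14). The mannosidase-like genes Edem1 (0.02), Edem2 (0.04) and Edem3 (0.00021), the channel genes Derl1 (-0.05) and Derl2 (-0.02), and Selenok (0.0024) had overlapping groups. Derl3, a paralog of Derl1, read 3.38 to 3.62 on the 4 arrays, below background. limma called 0 of the 11 tested, 1 being higher at an unadjusted p under 0.05.

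Of the genes of translocation into the ER and export from it, Sec61b and Sec24d were higher without passing. Sec61b, a small subunit of the translocation channel, read 4.63 and 4.45 in shControl against 4.82 and 4.99 in shYTHDF3, all within 1 log2 unit of background. The difference was 0.36 (SE 0.11, 95% interval 0.08 to 0.64, limma adjusted p = 0.148). Sec24d, a cargo adaptor of the COPII coat, read 8.63 and 8.73 against 8.98 and 8.91, a difference of 0.27 without overlap (limma adjusted p = 0.181). Sec23b, another subunit of that coat, differed by -0.13 with overlapping groups. The channel subunit Sec61a1 (-0.06), the translocon-associated Ssr1 (0.04) and the signal peptidase subunit Spcs3 (0.03) also overlapped. limma called 0 of these 6, 2 being higher at an unadjusted p under 0.05.

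A second probe set existed for 6 members. Those of Derl2, Edem1, Selenos and Sec61b lay below background. That of Ssr1 read 6.40 and 6.40 in shControl against 6.39 and 6.99 in shYTHDF3, so that its difference of 0.29, against 0.04 on the main probe set, rested on 1 array.

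**Figure D2:**
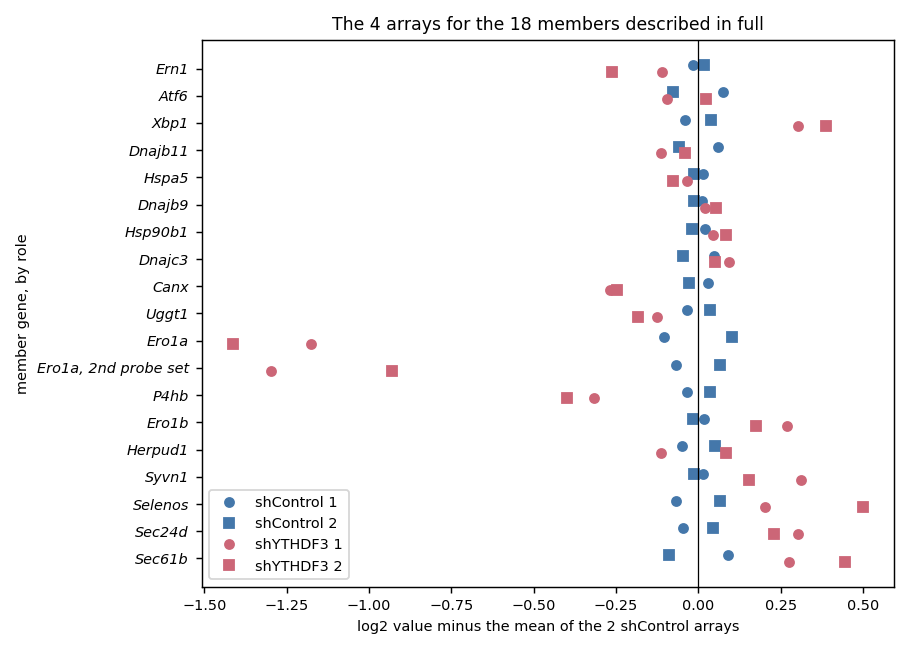
Each row is 1 of the 18 members given array by array, with the second Ero1a probe set added; points are the log2 value of each of the 4 arrays minus the mean of the 2 shControl arrays (horizontal axis), blue for shControl, red for shYTHDF3, circles for replicate 1 and squares for replicate 2. The shYTHDF3 points of both Ero1a probe sets lie far left of the rest, whereas those of Hspa5, Hsp90b1 and Dnajb9 lie close to 0.

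The members were set beside 109 other genes of the secretory and stress pathways, of which 2 rose and 1 fell by limma. Of all genes tested, 1.28% rose and 1.45% fell. A list named for the PERK arm and for targets of ATF4 or of CHOP, the product of Ddit3, held 16 genes tested. It is called the PERK and ATF4 list below, and the activity of PERK was not tested. Ddit4, a stress-induced inhibitor of mTORC1, fell by 1.33 (SE 0.13, limma adjusted p = 0.0227) and 15 did not pass. At an unadjusted p under 0.05, 9 of the 16 were lower and 0 higher, against 10.4% and 12.2% of all genes tested, and the list median was -0.41. With the intensity trend 7 of the 16 fell, against 5.33% of all genes, Atf4 (-0.48), Chac1 (-1.37), Trib3 (-0.83) and Slc7a11 (-0.95) among them. The kinase gene Eif2ak3 differed by 0.14. The Ddit4 call ended without any 1 of the 4 arrays (limma adjusted p = 0.0711 to 0.177), and the list median then ran from -0.53 to -0.27.

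Among the other degradation and signalling genes 2 of 23 rose, against 1.28% of all genes tested, and 21 did not pass. At an unadjusted p under 0.05, 3 were higher and 1 lower, against 12.2% and 10.4% of all genes tested. Ngly1, the cytosolic enzyme that strips sugars from proteins leaving the ER, read 6.32 and 6.38 in shControl against 7.33 and 7.39 in shYTHDF3. It rose by 1.01 (SE 0.09, limma adjusted p = 0.0175). Rnf5, an ER-anchored ubiquitin ligase, rose by 0.67 (SE 0.10, limma adjusted p = 0.0355). Without any 1 of the 4 arrays neither passed (limma adjusted p = 0.108 to 0.170 for Ngly1 and 0.135 to 0.197 for Rnf5), and the Rnf5 call also ended with no filter (0.0898) and with the replicate block (0.0766). By limma, 0 of 36 other folding and glycosylation genes passed (at an unadjusted p under 0.05, 5 were higher and 2 lower; median 0.0068), and P4ha1, a collagen prolyl hydroxylase subunit that uses protein disulphide isomerase as its partner, differed by -0.52 and Sil1, an exchange factor for BiP, by 0.50. By limma, 0 of 34 other translocation and export genes passed (at an unadjusted p under 0.05, 2 were higher and 4 lower; median -0.09), with Sec61a2 at -0.41 and Sec11c at 0.38. The count over these 109 genes, 3, was 7 when the filter was raised to the median probe set, 6 with a common median and 18 with the intensity trend. The share called of all genes tested moved as well. It was 2.73% in the main fit, 3.92% with that filter, 3.1% with the common median and 10.9% with the trend.

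Ero1a also belongs to the hypoxia-induced genes. Of 13 others tested, Slc2a3 (-1.01) and Pfkfb3 (-0.92) fell and 11 did not pass, where 1.45% of all genes tested fell. At an unadjusted p under 0.05, 10 were lower, against 10.4% of all genes tested, and the list median was -0.52. The smallest differences were those of Car9 (0.05), Egln3 (-0.11) and Egln1 (-0.13). With the intensity trend 10 of the 13 fell, against 5.33% of all genes. The Slc2a3 and Pfkfb3 calls ended with no filter (limma adjusted p = 0.0725 and 0.0728), with the replicate block (0.0758 each) and without any 1 array (0.114 to 0.179 and 0.135 to 0.177). P4ha1 is in this list and in that of the other folding genes. Ddit4 was placed in the PERK and ATF4 list only, and which stress its fall goes with was not tested. The lists were not tested against each other.

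**Figure D3:**
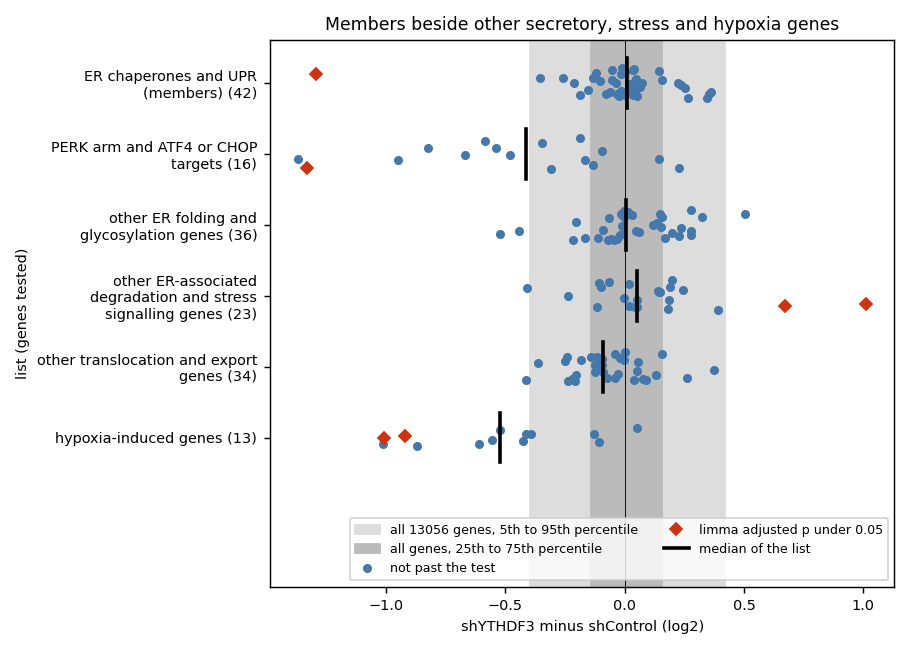
Each point is the change (shYTHDF3 minus shControl, log2, horizontal axis) of 1 gene tested in the list named on the vertical axis, with red diamonds for genes past limma's threshold and a bar at each list's median; the grey bands span the 5th to 95th (-0.40 to 0.42) and the 25th to 75th (-0.14 to 0.16) percentiles of all 13056 genes. The members centre on 0.01 with Ero1a alone at -1.29. The medians of the PERK and ATF4 list and of the hypoxia list lie at -0.41 and -0.52.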

How the data were processed

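The deposited table holds 1 log2 value per probe set and array for 41345 probe sets, which the authors made with RMA, per the submitters' processing notes; version and log base are not given in the sources used, and log2 was taken from RMA's usual scale and the range of values. RMA makes the arrays' distributions alike, so a shift of most genes would not be seen. Probe sets were named from the platform annotation, updated through Entrez identifiers: 23521 had 1 symbol, 1814 several and 16010 none. The probe set with the highest mean stood for a gene. The comparison used limma 3.58.1 (default lmFit and eBayes) under R 4.3.3 in two-sided tests, and p-values were adjusted by Benjamini-Hochberg over the 13056 genes above background. SE and 95% intervals are limma's moderated ones, the intervals unadjusted. The step was tested on simulated data. With 4 arrays, precision is limited by their number. The members and lists were chosen with earlier results of these data known. Array values are given for members past the threshold, for 9 core genes and for the 2 largest changes per role group. Of the other lists, the genes past the threshold are named, or the 2 largest changes. Eif2ak3, the genes of the PERK and ATF4 list called with the trend, Car9, Egln1 and Egln3 were added after their values were seen. Promoters came from RefSeq's table with Python 3.11.15; ACGTG was added as a motif after Ero1a had been seen, and protein sequences were not used here. Alternatives changed the filter, the variance model, the normalization, the choice of probe set, a block by replicate number and the arrays used.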

Additional observations from a re-analysis of the deposited data

How the results depend on the processing

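Ero1a kept its direction under each alternative run. Its call held with no filter on dim probe sets (limma adjusted p = 0.0474) and with the filter at the median. It also held with both trend settings, both normalizations and the mean of its probe sets. The test of all probe sets one by one took the 21867 above background, with or without a symbol. Leaving aside the test of all probe sets one by one, where Ero1a did not pass (limma adjusted p = 0.185), of 215 values of the 18 members under alternatives 196 kept direction and call, 6 passed newly (Canx, P4hb and Xbp1 with either trend), 5 were Ero1a losing its call and 8 turned sign. The turns were Atf6 at 0.0076, Herpud1 at 0.0067 and Hspa5 at 0.0043 with quantile normalization once more, Herpud1 at 0.0044 with a common median, and with 1 array left out Atf6, which ran from -0.11 to 0.040, and Herpud1, from -0.11 to 0.083. The 356 genes changed became 43 with no filter, 1426 with an intensity trend and 1465 with its robust form, 0 over all 21867 probe sets (3337 at an unadjusted p under 0.05), 51 with the replicate block and 0 to 12 with 1 array left out. The 1 member changed became 5 with either trend, 0 over all probe sets, 0 with the replicate block and 0 with each array left out in turn. The 3 other pathway genes became 7 with the filter at the median, 6 with a common median, 18 with either trend, 0 over all probe sets and 0 with each array left out in turn. The 2 hypoxia-induced genes became 0 with no filter, 10 with either trend, 0 over all probe sets, 0 with the replicate block and 0 with each array left out in turn. Fits without an array, and the fit with the replicate block, have fewer residual degrees of freedom than the main fit. The count over all genes was 488 with the filter at the median and 408 with a common median. The median change of the members, 0.0097, was 0.030 with a common median, where the median of all genes was 0.026, and ran from -0.0097 (without shYTHDF3 2) to 0.019 with 1 array left out. Deviations of same-numbered arrays correlated at -0.066 over the genes tested, and no label says that the numbers pair cultures. The cause of the changes between settings was not tested.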
